A study of Mus musculus with 6 samples.

Results

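The 41 genes described here encode the signalling chains of the T cell receptor and the kinases, adaptors, effectors and phosphatases that act closest to it. They were taken by symbol from a list of such genes, and all 41 were found among the 13564 genes of the deposited normalized table (the count files list 55487 genes). By role, they comprise 4 signalling chains of the receptor, 4 coreceptor and surface glycoproteins, 7 protein kinases, 13 adaptors, 7 effectors and exchange factors, and 6 phosphatases.

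The levels of these genes were compared between the progeny of CD4 naive T cells from Foxo1TKO mice (n = 3 libraries) and Foxo1Ctrl mice (n = 3 libraries), all of strain C57BL/6J. Foxo1TKO mice carry floxed Foxo1 alleles and a Cre recombinase driven by Cd4 regulatory elements. Deletion starts in thymocytes that express both coreceptors, so CD8 T cells of these mice lack Foxo1 as well. Foxo1Ctrl mice carry the same floxed alleles without Cre, and both lines carry a Foxp3-GFP reporter and were 3 months old where the methods give no other age. Cells of either genotype were sorted from lymph nodes and kept in culture for 4 days with anti-CD3 (0.1 µg/ml) and 250000 splenocytes from CD3eKO mice, animals that lack T cells but retain B cells, NK cells and myeloid cells. The labels give 50000 CD4 naive T cells per culture and the methods a larger number. A step that removed splenocytes ahead of RNA extraction is not given in the sources used here.

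In a T cell, the antigen-binding chains of the receptor have no signalling domain of their own and rely on the CD3 and zeta chains. The kinase LCK, carried by CD4, phosphorylates these chains and thereby recruits ZAP70, which in turn phosphorylates the scaffold LAT. Adaptors assembled on LAT then bring in PLCG1, VAV proteins and Ras exchange factors, while phosphatases and inhibitory adaptors return the complex to its resting state.

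Values are given as TMM-normalized counts, in the order of replicates 1, 2 and 3 of each genotype, and log2 fold changes as Foxo1TKO against Foxo1Ctrl ± standard error. A gene was called higher or lower when its fold change was over 1.5 and its p-value from edgeR's quasi-likelihood test was under 0.05 after Benjamini-Hochberg adjustment over 13691 genes. Library totals ran from 14783853 to 19675407 expected counts. Foxo1 itself (chr3:52268336-52353221, GRCm38, GENCODE M21 as for all gene positions given here) had 85.4, 46.5 and 115 in Foxo1TKO and 1529, 2285 and 1598 in Foxo1Ctrl. It was 21.8-fold lower (log2 fold change −4.45 ± 0.36, adjusted p = 0.000195).

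Markers of T cells were present in every library, with a summed level of 7012 to 7937 TPM (RSEM's measure of abundance per transcript length) in Foxo1TKO and 7623 to 9549 TPM in Foxo1Ctrl. Of these 8 genes 4 were called lower (50%, against 11.8% of all genes tested). Log2 fold changes were −1.64 for Icos, −1.43 for Cd28, −0.68 for Bcl11b and −0.67 for Trbc2 (adjusted p = 0.00114, 0.00119, 0.0113 and 0.0148). Bcl11b and Trbc2 were not called when scaled to the CD3 genes (adjusted p = 0.102 and 0.0906). Trac (log2 fold change 0.28 ± 0.16, adjusted p = 0.255) and Cd27 (log2 fold change −0.19 ± 0.15, adjusted p = 0.394) were not called. The 12 B cell markers summed to 981 to 1291 TPM in Foxo1TKO and to 956 to 1440 TPM in Foxo1Ctrl. Cd74 had means of 892 TPM in Foxo1TKO and 437 TPM in Foxo1Ctrl, and a sum without it was taken after the values were seen. The other 11 then summed to 219 to 317 TPM in Foxo1TKO and to 522 to 1044 TPM in Foxo1Ctrl, without overlap. Most of that sum was Ighm alone, with means of 263 TPM in Foxo1TKO and 781 TPM in Foxo1Ctrl. Of the 10 B cell markers that could be tested, 5 were called lower (50%, against 11.8% of all genes). Among them were Ighm (log2 fold change −1.61 ± 0.22, adjusted p = 0.00173) and Cd79b (log2 fold change −1.92 ± 0.29, adjusted p = 0.00283). Cd74 was the only one called higher (10%, against 11.1%), with a log2 fold change of 0.99 ± 0.24 (adjusted p = 0.0211). The 9 NK cell markers summed to 115 to 194 TPM in Foxo1TKO and to 452 to 597 TPM in Foxo1Ctrl. Klrd1 (log2 fold change −2.37 ± 0.23, adjusted p = 0.000399) and Klrk1 (log2 fold change −1.06 ± 0.21, adjusted p = 0.00836) were called lower. They made up most of these sums, with means of 77.1 and 70.3 TPM in Foxo1TKO and 384 and 140 TPM in Foxo1Ctrl. Klrb1c (log2 fold change −0.68 ± 0.47, adjusted p = 0.34), Klre1 (0.38 ± 0.42, adjusted p = 0.551) and Fcer1g (0.25 ± 0.34, adjusted p = 0.646) were not called. Ncr1 and Tyrobp had at most 13 and 11 counts, Klra8 was at 0 in every library and Klra4 had at most 2 counts. Summed levels were 2.11 to 6.55 TPM for the macrophage and the dendritic cell lists, up to 5.16 TPM for neutrophils, 16.3 to 42.1 TPM for erythroid cells and 4.27 to 8.29 TPM for Cd8a and Cd8b1. No gene of these lists was called, and Cd209a and Retnlg were at 0 in every library. Of 4 regulatory T cell markers, Foxp3 had at most 24 counts, Il2ra was not called (log2 fold change −0.019 ± 0.16, adjusted p = 0.947) and Ikzf2 was called higher (log2 fold change 2.68 ± 0.35, adjusted p = 0.00157). The part of B or NK cell RNA in the values of the members was not tested. In bulk RNA, fewer cells of a type and less RNA per cell cannot be told apart.

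Within each genotype, 1 library stood apart from the other 2. A trend of log2 level against the GC content of transcripts was 0.62 higher at 58.9% than at 40.2% GC in Foxo1TKO library 1. In Foxo1Ctrl library 2 the same difference was −0.71, and it lay between −0.16 and 0.19 in the other 4 libraries. For 10 of the 41 members, Foxo1TKO library 1 was over 1.3 times the mean of the other Foxo1TKO libraries and Foxo1Ctrl library 2 was under the mean of the other Foxo1Ctrl libraries by the same factor (a limit chosen after the values were seen). These were Cd4, Cd5, Cd6, Zap70, Tec, Dok1, Dok2, Vav1, Ptpn6 and Ubash3a. Their median GC content was 54.4%, against 48.8% for the other members and 49.7% for all genes tested. Leaving out both libraries takes away a high Foxo1TKO value and a low Foxo1Ctrl value of each of these 10 genes and so lowers their log2 fold changes by construction. Their values without both libraries are therefore given as a description, beside those from a fit with offsets for GC content, in which Ptpn6 was the only one of the 10 called.

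**Figure D1:**
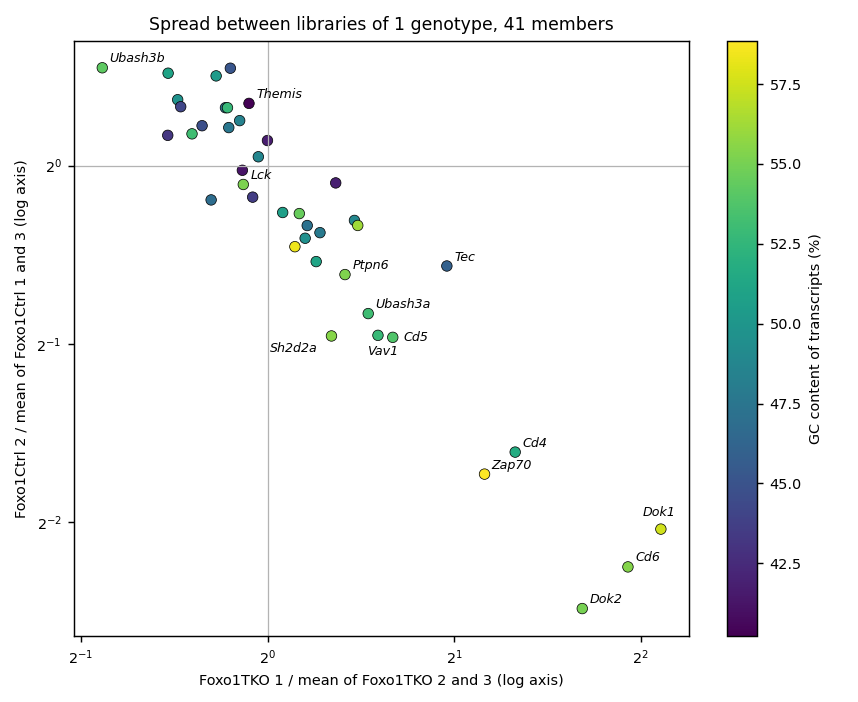
Each point is 1 of the 41 members, plotted by its level in Foxo1TKO library 1 relative to the mean of Foxo1TKO libraries 2 and 3 (x axis, log scale) and in Foxo1Ctrl library 2 relative to the mean of Foxo1Ctrl libraries 1 and 3 (y axis, log scale), and coloured by the GC content of its transcripts. Dok1, Cd6, Dok2, Cd4 and Zap70 lie farthest to the lower right, high in the former library and low in the latter, while Ubash3b lies at the opposite end.

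In Foxo1TKO cells, 10 of the 41 genes were called different, 3 higher and 7 lower, and the other 31 were not called. Those that rose were Ubash3b and Ptpn6, which encode phosphatases that oppose receptor signals, and Rasgrp1, which encodes the diacylglycerol-activated exchange factor for Ras. Those that fell were the adaptor genes Themis, Grap2, Fyb and Sla2, the kinase gene Prkcq, the paracaspase gene Malt1 and the Ras exchange factor gene Sos1. None of the 4 chains of the receptor complex itself was called, and neither were Lck, Zap70, Lat, Lcp2 or Plcg1, genes of the cascade from the kinases to phospholipase C. Grap2, whose product joins those of Lat and Lcp2 in that cascade, is among those that fell. The share of members called higher was 7.32%, against 11.1% of all genes tested, and the share called lower was 17.1%, against 11.8%. In all, 11 members had an adjusted p under 0.05 whatever their fold change, which is 26.8% of them against 24.2% of all genes. The libraries of the 2 genotypes did not overlap for 20 members, 6 higher and 14 lower in Foxo1TKO, which is 48.8% against 42.7% of all genes. The median log2 fold change was −0.17 for the members and 0.011 for all genes. When libraries were scaled to Cd3d, Cd3e and Cd3g, which are members themselves, the median of the members turned positive (0.088) and that of all genes moved to 0.27. Such scaling shifts all genes by about the same amount. The members thus stayed 0.18 below all genes by construction, which is no separate result. With Foxo1TKO library 1 and Foxo1Ctrl library 2 left out, 3 members were called higher (7.32%, against 15.7% of all genes) and 14 lower (34.1%, against 17.6%). The 7 added were Sla and 6 of the 10 genes named above, and this omission lowers the log2 fold changes of all 7 by construction. Sla did not reach the limit of 1.3. It still had 1.16 times the mean of the other Foxo1TKO libraries in library 1, and 0.792 times that of the other Foxo1Ctrl libraries in library 2. The share called lower is therefore given as a description. With GC offsets, 4 members were called higher and 7 lower, against 1683 and 1703 of 13679 genes. The scaling to the CD3 genes also changed the split of calls over all genes, from 1525 higher and 1619 lower to 2500 higher and 1072 lower.

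**Figure D2:**
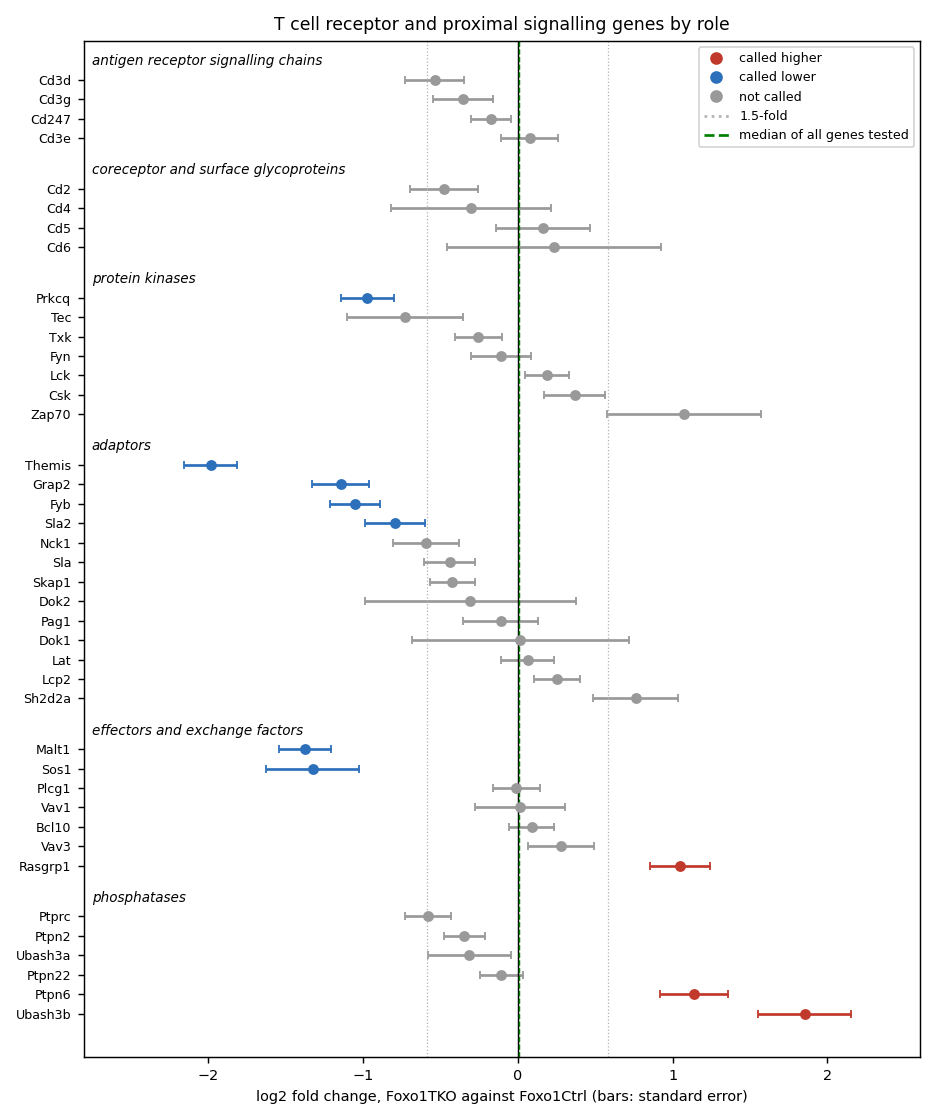
Log2 fold changes of the 41 members by role (x axis, Foxo1TKO against Foxo1Ctrl, with bars of 1 standard error). Red points are the 3 genes called higher, blue points the 7 called lower and grey points the 31 not called, dotted lines mark a 1.5-fold change and the dashed green line the median of all genes tested. Called genes lie at −0.79 and below or at 1.05 and above, and no receptor chain is among them.

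Levels per transcript length differed by orders of magnitude between the members. On the TPM scale the mean over the 6 libraries ran from 1.66 TPM for Sos1 to 2477 TPM for Cd2, with a median of 104 TPM. Cd2, Cd3g, Lck, Ptprc, Cd3d and Lat each exceeded 1000 TPM and together made up 64.3% of the summed level of the members. At the low end only Tec, Pag1 and Sos1 were under 10 TPM. Summed over all members, the level was 15457, 14936 and 13523 TPM in the Foxo1TKO libraries and 17219, 15779 and 17125 TPM in the Foxo1Ctrl libraries. These sums did not overlap, the Foxo1TKO libraries being the lower ones, and are given as a description.

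**Figure D3:**
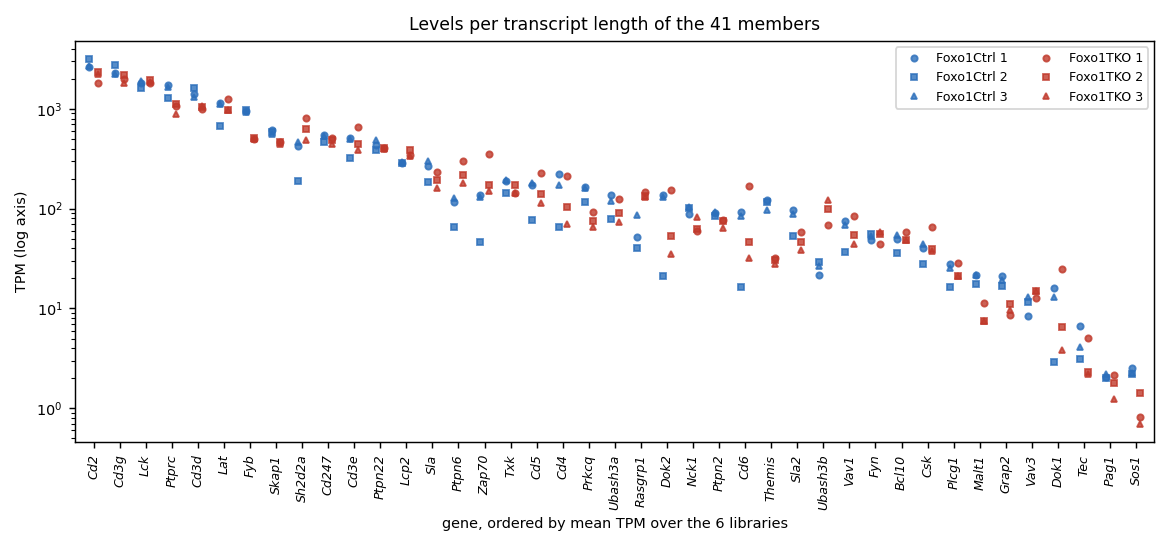
TPM of the 41 members in each of the 6 libraries (y axis, log scale), ordered by the mean over all libraries, with Foxo1Ctrl in blue and Foxo1TKO in red. The order runs from Cd2 at 2477 TPM to Sos1 at 1.66 TPM, and the vertical spread within a colour is widest for Dok1, Dok2, Cd6 and Cd4.

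None of the genes of the signalling chains passed the test. Cd3d, which encodes the delta chain, had 18902, 22158 and 23611 in Foxo1TKO and 28327, 38920.4 and 26564 in Foxo1Ctrl. All Foxo1TKO libraries were below all Foxo1Ctrl libraries, but the difference did not pass the test (log2 fold change −0.54 ± 0.19, adjusted p = 0.0808). Cd247, which encodes the zeta chain, had 10076, 10606 and 10251 in Foxo1TKO and 11592, 11884 and 11370.1 in Foxo1Ctrl. The libraries of each genotype lay within a narrow band for this gene, the Foxo1TKO band being the lower one, and the difference of 1.13-fold was not called (log2 fold change −0.17 ± 0.13, adjusted p = 0.377). Cd3g, for the gamma chain, ranged over 23329 to 28568 in Foxo1TKO and 28047 to 41457 in Foxo1Ctrl (log2 fold change −0.35 ± 0.20, adjusted p = 0.238). Cd3e, for the epsilon chain, ranged over 8010.3 to 11181 in Foxo1TKO and 7457 to 9413 in Foxo1Ctrl (log2 fold change 0.079 ± 0.18, adjusted p = 0.796). For both genes the libraries of the genotypes overlapped. Together the 4 chains summed to 3707 to 4172 TPM in Foxo1TKO and to 4581 to 5145 TPM in Foxo1Ctrl, without overlap. With libraries scaled to the 3 CD3 genes, the log2 fold change of Cd247 was 0.088 with an adjusted p of 0.65.

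Of the 4 coreceptor and surface glycoprotein genes none was called. Cd4, whose product binds MHC class II and carries LCK, had 7729.9, 3719 and 2442 in Foxo1TKO and 8386, 2409.5 and 6310.5 in Foxo1Ctrl. The spread within each genotype exceeded the difference between them (log2 fold change −0.30 ± 0.52, adjusted p = 0.721). Cd6, an inhibitory receptor gene related to Cd5, had 6329, 1929 and 1389 in Foxo1TKO and 3871, 779.9 and 3566 in Foxo1Ctrl (log2 fold change 0.23 ± 0.69, adjusted p = 0.842). For both genes Foxo1TKO library 1 was high and Foxo1Ctrl library 2 low. The log2 fold change of Cd4 was −1.25 without these 2 libraries (adjusted p = 0.00292) and −0.35 with GC offsets (adjusted p = 0.634). That of Cd6 was −1.16 without these 2 libraries (adjusted p = 0.00128) and 0.15 with GC offsets (adjusted p = 0.875). Cd5, which encodes a receptor that dampens signals from the T cell receptor, ranged over 3373 to 5761 in Foxo1TKO and 2366 to 4807 in Foxo1Ctrl (log2 fold change 0.16 ± 0.30, adjusted p = 0.739). Its log2 fold change was −0.35 without these 2 libraries (adjusted p = 0.0417) and 0.088 with GC offsets (adjusted p = 0.816). Cd2, which encodes an adhesion and costimulatory receptor and had the highest TPM of all members, ranged over 24219 to 35146 in Foxo1TKO and 37709 to 54772 in Foxo1Ctrl. Its libraries did not overlap and it was not called (log2 fold change −0.48 ± 0.22, adjusted p = 0.162).

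Among the 7 kinase genes, Prkcq (chr2:11172108-11301222) was the only one called (14.3% called lower, against 11.8% of all genes). It encodes protein kinase C theta, which links the receptor to NF-kappaB, and had 3827, 3283 and 3017 in Foxo1TKO and 7339.9, 5517 and 6982 in Foxo1Ctrl. All Foxo1TKO libraries were below all Foxo1Ctrl libraries, and the gene fell 1.96-fold (log2 fold change −0.97 ± 0.17, adjusted p = 0.00552). Lck had 38829, 43432 and 41561 in Foxo1TKO and 36336, 34465 and 37839.7 in Foxo1Ctrl. Every Foxo1TKO library was slightly above every Foxo1Ctrl library, and the difference did not pass the test (log2 fold change 0.19 ± 0.14, adjusted p = 0.377). Zap70, which encodes the kinase recruited to phosphorylated CD3 and zeta chains, had 9398, 4488 and 3906 in Foxo1TKO and 3702, 1106 and 3646 in Foxo1Ctrl. Its means differed 2.1-fold and its libraries did not overlap, yet the difference was not called (log2 fold change 1.07 ± 0.49, adjusted p = 0.159). Foxo1TKO library 1 was at over 2 times the level of the other Foxo1TKO libraries, and Foxo1Ctrl library 2 was by far the lowest of all. The log2 fold change was 0.19 without these 2 libraries (adjusted p = 0.21) and 1.00 with GC offsets (adjusted p = 0.0608). Zap70 was called under none of the 18 alternative settings, its adjusted p running from 0.0515 to 0.416.

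The other 4 kinase genes had overlapping libraries. Fyn, the other main Src-family kinase gene of T cells, ranged over 1541 to 2305 in Foxo1TKO and 1889.8 to 2472 in Foxo1Ctrl (log2 fold change −0.11 ± 0.19, adjusted p = 0.733). Txk and Tec encode Tec-family kinases. Txk ranged over 4438 to 5766 in Foxo1TKO and 5581 to 6441 in Foxo1Ctrl (log2 fold change −0.25 ± 0.15, adjusted p = 0.277), and the weakly expressed Tec over 60.5 to 131 in Foxo1TKO and 112 to 206 in Foxo1Ctrl (log2 fold change −0.73 ± 0.37, adjusted p = 0.202). Csk, which encodes the kinase that keeps Src-family kinases inactive, ranged over 896 to 1284 in Foxo1TKO and 686 to 901 in Foxo1Ctrl (log2 fold change 0.37 ± 0.20, adjusted p = 0.221). Of these genes, Tec is 1 of those that were high in Foxo1TKO library 1 and low in Foxo1Ctrl library 2. Its log2 fold change was −1.29 without these 2 libraries (adjusted p = 0.0159) and −0.68 with GC offsets (adjusted p = 0.261).

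Of the 13 adaptor genes, 4 fell (30.8%, against 11.8% of all genes), none rose and 9 were not called. Themis (chr10:28668360-28883818), which encodes a T-lineage adaptor that binds GRB2 and phosphatase SHP-1 and is required for thymocyte selection, had 1671, 1886 and 1695 in Foxo1TKO and 7005, 8083 and 5683 in Foxo1Ctrl. The highest Foxo1TKO value was far below the lowest Foxo1Ctrl value, and the 3.95-fold fall was the largest among the members (log2 fold change −1.98 ± 0.17, adjusted p = 0.000265). Grap2 (chr15:80572594-80652854), which encodes GADS, the bridge between LAT and SLP-76, had 363, 448 and 512 in Foxo1TKO and 968, 1057 and 899 in Foxo1Ctrl. It fell 2.21-fold with no overlap (log2 fold change −1.14 ± 0.18, adjusted p = 0.0037). By contrast, the genes of the 2 proteins that GADS joins were not called. Lat ranged over 15329 to 17339 in Foxo1TKO and 12439.8 to 17378 in Foxo1Ctrl (log2 fold change 0.064 ± 0.17, adjusted p = 0.822), and Lcp2, which encodes SLP-76, over 11574 to 13736 in Foxo1TKO and 9840.2 to 11798 in Foxo1Ctrl (log2 fold change 0.25 ± 0.15, adjusted p = 0.258).

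Fyb (chr15:6522853-6663313), which encodes the adhesion-promoting adaptor ADAP that binds SLP-76, had 9763, 11366 and 11469 in Foxo1TKO and 21273, 25952 and 20154 in Foxo1Ctrl. It fell 2.07-fold, every Foxo1TKO library being below every Foxo1Ctrl library (log2 fold change −1.05 ± 0.16, adjusted p = 0.00314). The gene Gm7666 overlaps exons of Fyb on the same strand. It had a mean of 999 counts in Foxo1TKO and 393 in Foxo1Ctrl, against 11731 and 20446 for Fyb itself. How reads were shared between both makes the value of Fyb uncertain to that extent. Skap1, whose product forms a complex with ADAP, ranged over 7824 to 8692 in Foxo1TKO and 10150.3 to 12606 in Foxo1Ctrl, without overlap but not called (log2 fold change −0.42 ± 0.15, adjusted p = 0.0719). Sla2 (chr2:156872457-156887192) encodes SLAP-2, an adaptor that promotes degradation of the receptor complex, and had 1990.4, 1763 and 1560.4 in Foxo1TKO and 3591, 2352 and 3244 in Foxo1Ctrl. It fell 1.73-fold without overlap (log2 fold change −0.79 ± 0.19, adjusted p = 0.0216), but this call is the least stable of the 10. It was lost without Foxo1TKO library 2 (adjusted p = 0.088), without Foxo1TKO library 3 (0.0765), without Foxo1Ctrl library 1 (0.0771), without Foxo1Ctrl library 3 (0.0708) and when scaled to the CD3 genes (0.114). Exons of Sla2 also overlap Rab5if on the opposite strand, which had a mean of 1777 counts in Foxo1TKO and 555 in Foxo1Ctrl. The strand setting of the counting is not given in the sources used here, so the value of Sla2 is uncertain to that extent.

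Sla, the gene of the related adaptor SLAP, ranged over 6256 to 7677 in Foxo1TKO and 8054 to 10723 in Foxo1Ctrl without overlap and was not called (log2 fold change −0.44 ± 0.16, adjusted p = 0.0895). Sh2d2a, which encodes the LCK-binding adaptor TSAd, had 20275, 17481 and 14499.8 in Foxo1TKO and 11659.6, 6310.2 and 12831 in Foxo1Ctrl. All of its Foxo1TKO libraries were above all of its Foxo1Ctrl libraries, Foxo1Ctrl library 2 being the lowest, and it missed the threshold (log2 fold change 0.76 ± 0.27, adjusted p = 0.0809). It passed with DESeq2 (adjusted p = 0.0334), without a filter on low counts (0.0359), with GC offsets (0.0238) and when scaled to the CD3 genes (0.0496). Nck1, for an adaptor that connects the receptor to the actin cytoskeleton, ranged over 1075 to 1729 in Foxo1TKO and 1709 to 2353 in Foxo1Ctrl and overlapped by 1 library, Foxo1TKO library 3 (log2 fold change −0.59 ± 0.22, adjusted p = 0.0849). Without that library it was called lower (log2 fold change −0.81, adjusted p = 0.0375).

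The inhibitory adaptor genes Dok1 and Dok2 had the widest spread of all members. Dok2 had 3417, 1237 and 885 in Foxo1TKO and 3194, 561 and 3102 in Foxo1Ctrl (log2 fold change −0.31 ± 0.68, adjusted p = 0.785). Dok1 had 546, 149 and 104 in Foxo1TKO and 391, 85.8 and 315 in Foxo1Ctrl (log2 fold change 0.017 ± 0.70, adjusted p = 0.989). Differences between libraries of 1 genotype, up to 5.24-fold for Dok1 and 5.69-fold for Dok2, exceeded the difference between genotypes in both. Foxo1TKO library 1 was the highest and Foxo1Ctrl library 2 the lowest for both. The log2 fold change of Dok1 was −1.47 without these 2 libraries (adjusted p = 0.00243) and −0.091 with GC offsets (adjusted p = 0.923). That of Dok2 was −1.57 without these 2 libraries (adjusted p = 0.000371) and −0.37 with GC offsets (adjusted p = 0.678). Pag1, which encodes a membrane anchor for CSK, was 1 of the 3 least expressed members and ranged over 85.4 to 103 in Foxo1TKO and 88.2 to 118 in Foxo1Ctrl (log2 fold change −0.11 ± 0.24, adjusted p = 0.786).

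**Figure D4:**
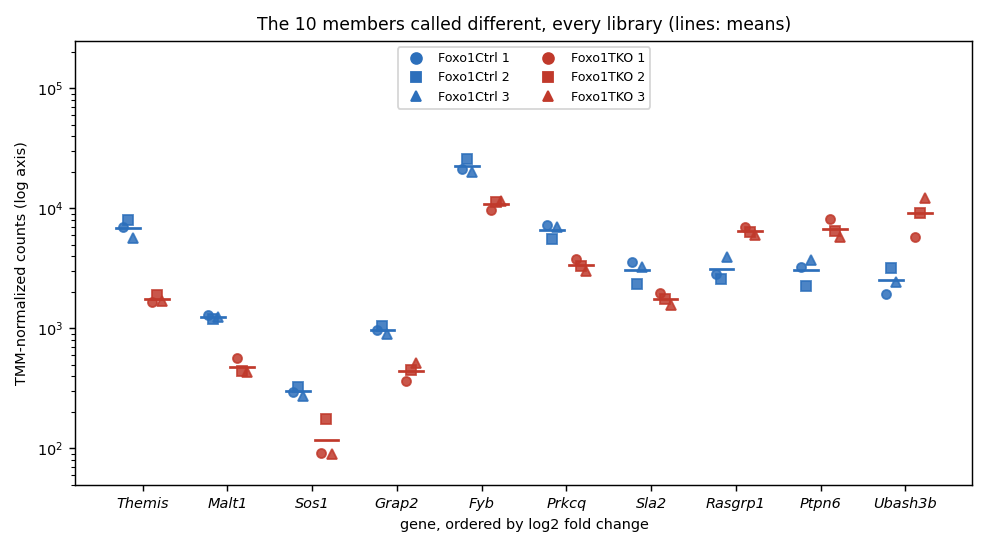
TMM-normalized counts of the 10 members called different in each library (y axis, log scale), with Foxo1Ctrl in blue, Foxo1TKO in red, 1 symbol per replicate number and a line at each mean. Genes are ordered by log2 fold change from Themis (−1.98) to Ubash3b (1.85), and in none of them do the libraries of the 2 genotypes overlap.

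Of the 7 genes of effectors and exchange factors, 1 rose (14.3%, against 11.1% of all genes), 2 fell (28.6%, against 11.8%) and 4 were not called. Rasgrp1 (chr2:117279993-117343001), which encodes the exchange factor that diacylglycerol recruits to activate Ras, had 7067, 6307 and 5986 in Foxo1TKO and 2833, 2564 and 3969.6 in Foxo1Ctrl. It rose 2.07-fold, with all Foxo1TKO libraries above all Foxo1Ctrl libraries (log2 fold change 1.05 ± 0.19, adjusted p = 0.0069). Sos1 (chr17:80393751-80480453), which encodes the Ras exchange factor brought to LAT by GRB2, had 91.3, 175 and 89.1 in Foxo1TKO and 298, 322 and 275 in Foxo1Ctrl. It fell 2.5-fold (log2 fold change −1.32 ± 0.30, adjusted p = 0.0162), with Foxo1TKO library 2 above the other Foxo1TKO libraries. Its call was lost without Foxo1TKO library 3 (log2 fold change −1.16, adjusted p = 0.0519). At 1.66 TPM, Sos1 was the least expressed member, against 98.7 TPM for Rasgrp1.

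Malt1, which encodes a paracaspase that activates NF-kappaB, had 565, 442 and 436 in Foxo1TKO and 1297, 1194 and 1257 in Foxo1Ctrl. It fell 2.59-fold and both groups were tight (log2 fold change −1.37 ± 0.17, adjusted p = 0.00115). Bcl10, which encodes an adaptor that also acts in NF-kappaB activation, ranged over 1317 to 1433 in Foxo1TKO and 1145 to 1441 in Foxo1Ctrl and was not called (log2 fold change 0.089 ± 0.15, adjusted p = 0.707). Among the other effector genes, Plcg1, which encodes phospholipase C gamma 1, had almost equal means of 1522 ± 141 in Foxo1TKO and 1530 ± 167 in Foxo1Ctrl (log2 fold change −0.0077 ± 0.15, adjusted p = 0.978). Vav1 and Vav3, which encode exchange factors phosphorylated after receptor engagement, were not called either. Vav1 ranged over 1932 to 3141 in Foxo1TKO and 1486 to 2995 in Foxo1Ctrl (log2 fold change 0.015 ± 0.29, adjusted p = 0.978), and Vav3 over 592 to 780.2 in Foxo1TKO and 438 to 655 in Foxo1Ctrl (log2 fold change 0.28 ± 0.21, adjusted p = 0.387). For Vav1, high in Foxo1TKO library 1 and low in Foxo1Ctrl library 2, the log2 fold change was −0.46 without these 2 libraries (adjusted p = 0.0191), under the fold limit, and −0.057 with GC offsets (adjusted p = 0.884).

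Of the 6 phosphatase genes, 2 rose (33.3%, against 11.1% of all genes) and 4 were not called. Ubash3b (chr9:41011098-41161697) encodes STS-1, a phosphatase that dephosphorylates ZAP70, and had 5823, 9239.8 and 12285 in Foxo1TKO and 1943, 3196 and 2424 in Foxo1Ctrl. The lowest Foxo1TKO value exceeded the highest Foxo1Ctrl value, and the 3.61-fold rise was the largest among the members (log2 fold change 1.85 ± 0.30, adjusted p = 0.00396). The Foxo1TKO libraries differed from each other, library 1 having the lowest level and library 3 the highest. Ptpn6 (chr6:124720707-124738714), which encodes SHP-1, a phosphatase recruited by inhibitory receptors, had 8114, 6437 and 5736 in Foxo1TKO and 3249, 2272 and 3695 in Foxo1Ctrl. It rose 2.2-fold without overlap (log2 fold change 1.14 ± 0.22, adjusted p = 0.00859). Ptpn6 is 1 of the 10 members that were high in Foxo1TKO library 1 and low in Foxo1Ctrl library 2. It was called both with GC offsets (log2 fold change 1.06, adjusted p = 0.00145) and without Foxo1TKO library 1 and Foxo1Ctrl library 2 (log2 fold change 0.81, adjusted p = 0.00142). B cells and NK cells are also known to express Ptpn6, and their part in its level was not tested.

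Ptprc encodes CD45, which keeps LCK ready for activation and is present on all white blood cells, and had 53279, 61924 and 55103 in Foxo1TKO and 86245, 83829.7 and 84480 in Foxo1Ctrl. All Foxo1TKO libraries were below all Foxo1Ctrl libraries, with an adjusted p under 0.05 and a 1.49-fold difference just short of the limit of 1.5 (log2 fold change −0.58 ± 0.15, adjusted p = 0.0242). It passed that limit with upper quartile scaling (log2 fold change −0.59), with effective length offsets (−0.65) and in the deposited normalized signal (−0.65). Its adjusted p was 0.117 when scaled to the CD3 genes and 0.0752 with GC offsets. Ubash3a, the T cell paralog of Ubash3b, ranged over 2141 to 3316 in Foxo1TKO and 2146 to 4063 in Foxo1Ctrl (log2 fold change −0.31 ± 0.27, adjusted p = 0.446). With Foxo1TKO library 1 high and Foxo1Ctrl library 2 low, its log2 fold change was −0.74 without these 2 libraries (adjusted p = 0.00258) and −0.39 with GC offsets (adjusted p = 0.209). Ptpn2 and Ptpn22 encode phosphatases that limit receptor signals. Ptpn2 ranged over 1527 to 1676 in Foxo1TKO and 1939.9 to 2169 in Foxo1Ctrl, without overlap (log2 fold change −0.35 ± 0.13, adjusted p = 0.1), and Ptpn22 over 12417 to 13365 in Foxo1TKO and 12763 to 15031 in Foxo1Ctrl (log2 fold change −0.11 ± 0.14, adjusted p = 0.626).

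Because a ratio of 2 genes within a library does not depend on how libraries are scaled, 6 pairs of related members were compared by the ratio of their TPM. Ubash3a was above Ubash3b in every Foxo1Ctrl library but not in every Foxo1TKO library, the ratio being 1.79, 0.92 and 0.598 in Foxo1TKO and 6.27, 2.69 and 4.45 in Foxo1Ctrl. The log2 ratio differed by −2.08 without overlap, with p = 0.1 in an exact two-sided permutation test, the smallest p that 3 libraries against 3 allow, and 0.3 after adjustment over the 6 pairs. Sla exceeded Sla2 in all libraries, with a ratio of 4.08, 4.19 and 4.19 in Foxo1TKO and 2.77, 3.51 and 3.45 in Foxo1Ctrl, also without overlap (log2 difference 0.36, exact permutation p = 0.1, adjusted p = 0.3). The other 4 pairs overlapped between genotypes, with log2 differences of −0.35 for Vav1/Vav3, 0.40 for Txk/Tec, 0.16 for Dok1/Dok2 and 0.09 for Lck/Fyn and exact permutation p-values of 0.6, 0.4, 0.5 and 0.5. In every library Lck was 29.6 to 41.2 times as abundant per length as Fyn, and Dok1 was 0.0976 to 0.162 times as abundant as Dok2, although the levels of the latter genes spread widely.

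**Figure D5:**
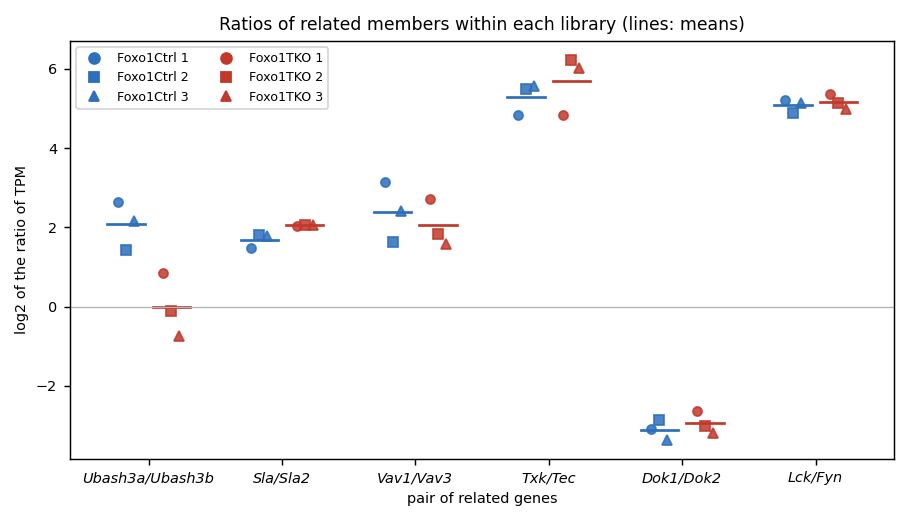
Log2 ratios of TPM of 6 pairs of related members in each library (y axis), with Foxo1Ctrl in blue, Foxo1TKO in red, 1 symbol per replicate number and a line at each mean. The genotypes are separate for Ubash3a/Ubash3b, with means of 2.08 in Foxo1Ctrl and −0.0069 in Foxo1TKO, and for Sla/Sla2, and overlap for the other 4 pairs.

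To show sequence at the start of members that fell or rose, RefSeq windows of 250 bases before to 50 bases after annotated start sites (GRCm38.p6) were read. By symbol, 30 of the 41 members matched 42 windows. Cd4, Cd6, Cd2, Sla, Ptpn2, Pag1, Malt1, Sh2d2a, Dok1, Dok2 and Skap1 are not among them. The letters TGTTTAC, the core that Foxo factors bind, or its reverse complement GTAAACA, were in 3.65% of all 32851 windows and in 1 member window, that of Grap2. The variant TGTTTGC, or its reverse complement GCAAACA, was in 5.07% of all windows and in 3 member windows, those of Themis, Ptpn22 and Ubash3a. Shown are the windows of Themis and of Grap2, which fell and hold these letters (in capitals), and of Ubash3b, which rose and holds neither. Where a gene had several windows, 1 with these letters was shown, or otherwise the most upstream. The windows of Prkcq, Fyb, Sla2 and Sos1, which also fell, and of Ptpn6 and Rasgrp1, which also rose, hold neither. These matches describe letters only.
Themis chr10:28668145-28668444, plus strand: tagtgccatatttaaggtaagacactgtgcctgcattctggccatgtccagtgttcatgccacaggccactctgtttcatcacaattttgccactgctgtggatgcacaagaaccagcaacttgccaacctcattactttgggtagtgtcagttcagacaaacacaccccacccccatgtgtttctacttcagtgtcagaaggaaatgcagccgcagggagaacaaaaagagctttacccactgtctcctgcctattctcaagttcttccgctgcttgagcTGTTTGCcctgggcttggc
Grap2 chr15:80623233-80623532, plus strand: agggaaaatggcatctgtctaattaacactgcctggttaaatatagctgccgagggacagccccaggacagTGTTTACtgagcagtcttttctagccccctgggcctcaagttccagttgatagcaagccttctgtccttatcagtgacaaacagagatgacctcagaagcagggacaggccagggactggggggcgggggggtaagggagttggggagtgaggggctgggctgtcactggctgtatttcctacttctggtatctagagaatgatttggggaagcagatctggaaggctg
Ubash3b chr9:41158013-41158312, minus strand: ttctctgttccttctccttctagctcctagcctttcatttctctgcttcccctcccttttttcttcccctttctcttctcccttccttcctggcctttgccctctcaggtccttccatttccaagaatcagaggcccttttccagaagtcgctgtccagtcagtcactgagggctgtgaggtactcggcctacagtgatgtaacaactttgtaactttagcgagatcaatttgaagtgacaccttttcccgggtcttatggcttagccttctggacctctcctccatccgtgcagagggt
In the Themis window the capitals begin 31 bases after the start site, and in the Grap2 window 179 bases before it. The start sites of the Themis, Grap2 and Ubash3b windows lie inside the GENCODE spans of these genes given above, not at their outer ends.

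The mean transcript length of a gene, as RSEM weights it by transcript abundance, gives a readout of transcript choice apart from the level. It could be tested for 40 members, and for none of them did it differ between genotypes by limma's test at an adjusted p under 0.05, whereas 16 of 8140 genes (0.197%) did. At an unadjusted p under 0.05 there were 6 members (15%) and 683 genes in all (8.39%). The smallest p among members was that of Sh2d2a, with a mean length of 1989 ± 4.53 bases in Foxo1TKO and 2052 ± 15.9 bases in Foxo1Ctrl (log2 difference −0.045 ± 0.0096, adjusted p = 0.291 by limma). Fyb, which fell in level, also had shorter transcripts in all Foxo1TKO libraries, 1599 ± 22.8 against 1665 ± 20 bases, and this too did not pass (adjusted p = 0.418 by limma).

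Genes of the same signalling steps outside the 41 were counted from a second list of 47, of which Gab2 and Shb were too low to test. Of the 45 tested, 3 rose (6.67%, against 11.1% of all genes) and 17 fell (37.8%, against 11.8%), with a median log2 fold change of −0.45. This list was chosen with earlier results of these data known, so its shares may reflect that choice and are given as a description. The largest falls were those of Gab3, a docking protein gene (log2 fold change −2.38 ± 0.26, adjusted p = 0.000757), and Prkd2, a kinase gene downstream of diacylglycerol (log2 fold change −1.95 ± 0.26, adjusted p = 0.00173). They were followed by Nck2, the paralog of Nck1 (log2 fold change −1.82 ± 0.21, adjusted p = 0.000972), and Pik3cd, the catalytic subunit gene of PI3K delta (log2 fold change −1.64 ± 0.21, adjusted p = 0.0013). The 3 that rose were Orai1, the pore subunit gene of the store-operated calcium channel (log2 fold change 1.91 ± 0.32, adjusted p = 0.00449), Tespa1, a gene involved in thymocyte selection (log2 fold change 1.10 ± 0.20, adjusted p = 0.00705), and Pik3r1, a regulatory subunit gene of PI3K (log2 fold change 0.64 ± 0.17, adjusted p = 0.026). Of these, Pik3r1 was called in only 12 of the 18 alternatives and in 1 of the 6 that leave out 1 library. Sos2, chosen after its value was seen as the paralog of Sos1, was called lower (log2 fold change −0.61 ± 0.18, adjusted p = 0.0429). The call of Sos2 held in only 8 of the 18 alternatives and in none of the 6 that leave out 1 library. The number called in this list was 8 without Foxo1TKO library 2, 13 without Foxo1TKO library 3 and 13 without Foxo1Ctrl library 1, against 20 with all libraries. When scaled to the CD3 genes it was 15.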

How the data were processed

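RNA-seq libraries, 3 of each genotype, had been made and processed by the study. The authors aligned reads with STAR 2.7.6a to GRCm38 and deposited, for each library, RSEM 1.3.1 expected counts, TPM and mean transcript lengths per gene. Reads from near-identical genes were thereby divided by estimate, and read trimming and the strand setting are not given in the sources used here. The authors also deposited a normalized signal of 13564 genes. Every value of it lay within 0.1% of what DESeq2 size factors combined with relative effective lengths give from the expected counts.

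Here expected counts were rounded and the 13691 genes that reached 10 counts in 3 or more libraries were tested with edgeR 4.0.16 (TMM, quasi-likelihood test, prior count 1, genotype as the only term) in R 4.3.3, with Benjamini-Hochberg adjustment over all of them. Log2 transcript lengths of genes with a mean of at least 100 counts were tested with limma 3.58.1, and TPM ratios with exact two-sided permutation tests. Library totals of 14783853 to 19675407 limit the precision of low genes. The scripts were tested on simulated data.

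DESeq2 1.42.0, limma-voom, other scalings, filters, thresholds, length offsets, the deposited signal (pseudocount 1), a replicate block and leaving out each library were run as alternatives. GC offsets and leaving out Foxo1TKO library 1 together with Foxo1Ctrl library 2 were added after the data were seen. Replicate numbers were treated as names, since deviations from the genotype means correlated with r = 0.68, 0.40 and −0.29 for same-numbered libraries. The labels do not say that libraries came from separate animals or cultures, so p-values measure only the spread between libraries. Members and lists were chosen with earlier results of these data known. Named were all members, Foxo1, up to 4 called genes with the largest change in each direction from the second pathway list, and up to 3 genes per marker list whose mean reached 100 normalized counts. Further marker genes were named after their values were seen. Promoter windows (250 bases before to 50 after the start) came from RefSeq on GRCm38.p6, gene positions and overlaps from GENCODE M21.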

Additional observations from a re-analysis of the deposited data

How the results depend on the processing

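Under all 18 alternatives to the fit, 8 members kept their call (Ubash3b, Ptpn6, Rasgrp1, Themis, Malt1, Grap2, Fyb and Prkcq), and 21 were called in none. Over 738 comparisons of a member's value with an alternative, 675 kept direction and side of the threshold, 6 lost the call, 13 gained it in the same direction and 44 reversed sign, all 44 for members not called with all libraries. Of the 44, Cd6 and Dok1 gained a call with both libraries left out, so that calls were gained in 15 comparisons. The call of Sla2 was lost under 5 alternatives and that of Sos1 under 1, as given in the report. With Foxo1TKO library 1 and Foxo1Ctrl library 2 both left out, 17 members were called, 14 of them lower, adding Cd4, Cd6, Dok1, Dok2, Sla, Tec and Ubash3a to the 10, while calls over all genes went from 3144 to 4559. This omission lowers the log2 fold changes of all the added genes by construction, also that of Sla (−0.44 with all libraries, −0.62 without both). The median log2 fold change of the members was −0.26 with both libraries left out, and it was 0.088 when scaled to the CD3 genes and −0.31 to −0.12 when 1 library was left out.

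Values that changed sign were, with both libraries left out, Cd3e −0.19, Cd5 −0.35, Cd6 −1.16, Fyn 0.17, Lat −0.12, Pag1 0.073, Dok1 −1.47, Vav1 −0.46 and Bcl10 −0.022. When scaled to the CD3 genes they were Cd247 0.088, Fyn 0.16, Pag1 0.16, Plcg1 0.24 and Ptpn22 0.14, and with GC offsets Lat −0.017, Dok1 −0.091 and Vav1 −0.057. For the normalized signal they were Dok1 −0.029, Plcg1 0.0052 and Vav1 −0.016, with limma-voom Dok1 −0.077, with effective length offsets Vav1 −0.032 and with no filter Plcg1 0.0054. Lowest and highest values with 1 library left out were Cd3e −0.11 to 0.16, Cd4 −0.89 to 0.10, Cd5 −0.10 to 0.35, Cd6 −0.73 to 0.59, Fyn −0.25 to 0.038, Lat −0.056 to 0.15, Pag1 −0.21 to 0.020, Dok1 −1.06 to 0.42, Dok2 −1.11 to 0.026, Plcg1 −0.079 to 0.072 and Vav1 −0.22 to 0.20. For the TPM ratios they were −0.73 to 0.026 for Vav1/Vav3, −0.00070 to 0.28 for Dok1/Dok2 and −0.0083 to 0.18 for Lck/Fyn. In these cases the cause was not tested.

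Over all genes, 1854 to 3321 were called with 1 library left out (1854 without Foxo1TKO library 2 and 2031 without Foxo1Ctrl library 1) and 1597 at an adjusted p under 0.01, against 3144. Of the second pathway list, 8 to 19 were called with 1 library left out and 11 at an adjusted p under 0.01, against 20. With the replicate block, 10 members (all 10 of the calls without it), 23 genes of that list and 3318 genes in all were called, and Dok1 changed sign (−0.082). Same-numbered libraries did not all deviate together, so the numbers were not taken as pairs. With 3 libraries a genotype, exact tests could not go below 0.1, and members with few counts or wide spread, such as Sos1, Tec, Dok1 and Cd6, allow no statement on small differences.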

Other observations

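When the 41 members were divided by function after their values were seen, 13 genes known to dampen receptor signals (Cd5, Cd6, Csk, Pag1, Sla, Sla2, Dok1, Dok2, Ptpn2, Ptpn6, Ptpn22, Ubash3a and Ubash3b) held 2 of the 3 genes that rose, Ptpn6 and Ubash3b, and 1 of the 7 that fell, Sla2. The other 28 members held Rasgrp1, which rose, and Themis, Grap2, Fyb, Prkcq, Malt1 and Sos1, which fell. As shares, 15.4% of the 13 were called higher and 7.69% lower, and of the 28, 3.57% higher and 21.4% lower. Over all genes these shares were 11.1% and 11.8%. The median log2 fold change was −0.11 for the 13 genes and −0.28 for the 28, and the difference between the groups was not tested.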
